A study of Mus musculus with 24 samples.

Results

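Mouse N1E-115 neuroblastoma cells expressing TO, a fusion of transcobalamin to oleosin, were compared with untransfected N1E-115 cells, both grown in proliferation medium. The comparison takes 8 of the 24 samples of the series, 4 TO samples (TO-p) and 4 untransfected samples (WT-p), chosen by their sample labels. N1E-115 is an established line derived from a mouse neuroblastoma and is used here as a neuronal model. In TO the transcobalamin is joined by its N-terminal end and the protein binds cobalamin (vitamin B12) with high affinity. In OT, the second construct of the series, it is joined by its C-terminal end and no cobalamin binding was detected. Proliferation medium was DMEM with 10% fetal calf serum. The samples set beside the comparison are OT cells in the same medium (OT-p, 4 samples) and TO and untransfected cells in differentiation medium with 2.5% serum and 1.25% DMSO (TO-d and WT-d, 4 each). The untransfected cells received no vector, so transfection as such and the TO protein cannot be told apart in this comparison. The number of clones and the promoter of the construct are not given in the sources used here. RNA of each sample (0.2 µg) was labelled with Cy5 or Cy3 and hybridised to Agilent arrays that held 2 samples each. Each group had 2 samples in each dye. TO-p and WT-p each had samples on all 3 slides.

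Cobalamin reaches cells bound to transcobalamin (Tcn2), which is taken up through the receptor Cd320 and broken down in the lysosome. Abcd4 moves the vitamin to the cytosol, Mmachc processes it there, and its derivatives serve methionine synthase (Mtr) and methylmalonyl-CoA mutase (Mmut). A transcobalamin anchored inside the cell by oleosin can hold the vitamin away from these enzymes, and methionine synthase feeds the methyl donor S-adenosylmethionine that methyltransferases such as Prmt1 and Carm1 use. The title of the series names HuR (gene Elavl1), an RNA-binding protein, and the nuclear export of mRNA, so genes of these processes were read out along with those of the cell cycle, the neuronal phenotype and the interferon response.

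The 8 samples had 54.26 to 63.59% of spots well above background, and no spot was saturated. WT-p fell into pairs. The SD of the difference between 2 samples was taken over the 16239 genes tested, less 406 with a missing value. It was 0.271 (log2) between WT-p 1 and 3 and 0.237 between WT-p 2 and 4, but 0.3002 to 0.403 between the pairs. The pairs of TO-p samples lay between 0.241 and 0.287. WT-p 1 and 3 also carry the same tube number in the labels, as do TO-p 2 and 3, and the labels do not say whether a shared number means a shared RNA extract. The main results are therefore also given without WT-p 1 and 3. TO-p 1 and WT-p 3 were hybridised to the same array. All 16 markers of sympathetic neuroblasts (among them Th, Dbh, Gata3 and Chga) were above background in all 8 samples. Markers for other cell types were detected in part. In the fibroblast and smooth muscle list, 6 of 10 were above background in all 8 samples and 1 in none. The glia list had 3 of 9 in all 8 samples and 3 in none. For blood and endothelium, 1 of 9 was above background in all 8 samples, and 3 (Ptprc, Cdh5 and Kdr) were so in none. The blood and endothelium list had 2 tested members, of which Hba-a1, a haemoglobin chain, was higher in TO-p (1.25, limma adjusted p = 1.08e-10). The fibroblast and smooth muscle list had 7, of which 2 were higher, Col1a1 by 1.35, and 2 lower. The glia list had 4, of which 0 were higher and 2 lower.

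TO-p and WT-p differed in many genes by small amounts. At a limma adjusted p under 0.05, TO-p had higher levels of 3091 of the 16239 genes (19.0%) and lower levels of 2581 (15.9%). Loess normalization alone, which shifts the median difference of all genes from 0.005 to -0.0769, gave 1329 higher and 2778 lower, so the balance between the directions rests on the scaling. Differences over 2-fold were few, 140 higher (0.862% of the genes tested) and 104 lower (0.640%). When WT-p 1 and 3 were left out, 1655 genes (10.2%) were higher and 1427 (8.79%) lower. They included 1509 (48.8%) of the 3091 and 1231 (47.7%) of the 2581. The 20 genes with a symbol and the largest differences in each direction, among those whose samples do not overlap, were all called in that comparison too. All p-values rest on a spread pooled over the 24 samples of the series and not on the 8 samples alone. A fit to only the 8 samples gave 1961 genes higher and 1513 lower. The design text calls the samples biological replicates without saying how the cultures were separated. In RNA from whole cultures, fewer cells of a type and less RNA per cell cannot be told apart.

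The sequences below are stretches of promoters, shown because the interferon-stimulated genes had the largest share of higher members in TO-p and the DNA replication genes the largest share of lower members, as described further down. They were read from the RefSeq promoter table (build GRCm38.p6) and are the 150 bases before the gene start, 5′ to 3′ on the gene's strand. Capitals mark every match, on either strand, to the core of the interferon-stimulated response element (GAAA, any 2 bases, GAAA) or to the site of E2F factors (TTT, any 2 bases, CGC). Overlapping matches run together. The interferon genes are Oas1a (chr5:120907526-120907675, minus strand), Oas1c (chr5:120812515-120812664, minus strand), Bst2 (chr8:71537473-71537622, minus strand), Igtp (chr11:58199406-58199555, plus strand) and Isg15 (chr4:156200819-156200968, minus strand). The replication genes are Cdc6 (chr11:98908001-98908150, plus strand) and Pola1 (chrX:93632156-93632305, minus strand).
Oas1a: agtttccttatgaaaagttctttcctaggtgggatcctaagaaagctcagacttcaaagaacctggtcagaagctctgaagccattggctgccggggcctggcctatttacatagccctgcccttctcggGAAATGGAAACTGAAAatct
Oas1c: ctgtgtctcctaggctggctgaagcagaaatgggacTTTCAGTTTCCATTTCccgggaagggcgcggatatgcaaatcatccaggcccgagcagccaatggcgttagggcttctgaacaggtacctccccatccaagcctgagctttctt
Bst2: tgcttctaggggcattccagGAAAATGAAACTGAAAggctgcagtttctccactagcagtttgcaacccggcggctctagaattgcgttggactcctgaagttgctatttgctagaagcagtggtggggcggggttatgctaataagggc
Igtp: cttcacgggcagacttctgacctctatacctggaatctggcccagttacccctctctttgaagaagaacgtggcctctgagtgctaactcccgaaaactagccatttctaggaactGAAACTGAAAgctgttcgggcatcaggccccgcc
Isg15: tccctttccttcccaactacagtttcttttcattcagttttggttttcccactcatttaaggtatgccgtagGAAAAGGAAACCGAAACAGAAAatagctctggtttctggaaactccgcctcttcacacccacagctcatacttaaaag
Cdc6: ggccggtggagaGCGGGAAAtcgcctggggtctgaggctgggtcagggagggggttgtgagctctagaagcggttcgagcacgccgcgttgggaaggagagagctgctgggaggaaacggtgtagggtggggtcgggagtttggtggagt
Pola1: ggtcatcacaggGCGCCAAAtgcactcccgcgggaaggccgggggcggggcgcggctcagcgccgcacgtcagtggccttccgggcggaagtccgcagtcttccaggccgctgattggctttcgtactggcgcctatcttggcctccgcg

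The interferon core matched the 250 bases before the start of 978 of 32851 promoters (2.98%). It matched 13 of the 36 members of the interferon list that were tested and have a promoter in the table. These were 6 of the 18 that rose, 1 of the 3 that fell (Isg15) and 6 of the 15 that were not called. The E2F site matched 1406 promoters (4.28%) and 14 of 53 replication genes, namely 9 of the 33 that fell, 0 of the 1 that rose and 5 of the 19 that were not called. The 2.98% and 4.28% count single promoters of the whole table, whereas a list member counted if any of its promoters matched. These shares are therefore not in the same unit. A match describes letters in a window and not a bound site.

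The gene furthest lower in TO-p was Dlk1, which encodes a membrane protein of the Notch ligand family and is expressed from the paternal copy. Its normalized log2 intensity was 12.62, 12.84, 12.47 and 13.01 in WT-p 1 to 4 and 8.21, 6.98, 6.66 and 6.55 in TO-p 1 to 4. All TO-p samples lay over 4 log2 units below every WT-p sample, and TO-p 1, which shared its array with WT-p 3, was the highest of them. The fitted difference was -5.10 (SE 0.398), a 34.4-fold lower level (limma adjusted p = 1.35e-09), and a second probe of the gene gave -3.63. OT-p minus WT-p was -4.62 for Dlk1 (limma adjusted p = 2.25e-09), where 44.6% of all genes were called in either direction. TO-p minus OT-p did not pass the test (-0.48, SE 0.416, limma adjusted p = 0.35).

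Pnrc2, a nuclear receptor coactivator that also takes part in mRNA decay, was lower in TO-p and not in OT-p. It read 9.93, 10.40, 10.09 and 10.27 in WT-p and 6.06, 6.60, 6.99 and 6.53 in TO-p, where 2 of 4 samples were well above background. The difference was -3.74 (SE 0.133, limma adjusted p = 1.15e-15), against 0.38 for OT-p minus WT-p. TO-p and OT-p differed by -4.12 (SE 0.14, limma adjusted p = 3.87e-16). In differentiation medium, where TO-d against WT-d called 46.6% of all genes, the difference was -3.87.

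Igf2bp3, an RNA-binding protein of early development and tumours that acts on mRNA stability and translation, fell from 9.18, 8.88, 9.21 and 9.05 in WT-p to 6.28, 6.38, 6.70 and 6.46 in TO-p. The difference was -2.68 (SE 0.0751, limma adjusted p = 7.77e-17), and its 3 probes ranged from -2.68 to -1.04. Wnt2, a secreted Wnt ligand, read 10.74, 10.61, 10.69 and 10.67 in WT-p and 7.86, 7.92, 8.33 and 8.29 in TO-p, a difference of -2.64 (SE 0.086, limma adjusted p = 2.67e-16). Neither gene was called in OT-p against WT-p (-0.08 and 0.18). The direct comparison of TO-p with OT-p, which called 29.9% of all genes higher and 26.3% lower, gave -2.59 for Igf2bp3 (limma adjusted p = 5.09e-17) and -2.82 for Wnt2 (limma adjusted p = 1.25e-16).

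Several cancer-testis genes of the X chromosome, normally expressed in the germ line, fell in TO-p. Ct55 read 9.37 to 9.68 in WT-p and 6.19 to 6.62 in TO-p, with 1 of 4 TO-p samples above background (-3.27, SE 0.108, limma adjusted p = 3.15e-16). OT-p minus WT-p was -1.57. Magea8 read 9.94, 9.72, 9.94 and 9.63 in WT-p and 7.12, 7.12, 7.50 and 7.40 in TO-p (-2.58, SE 0.0837, limma adjusted p = 2.67e-16). Magea3, Magea1, Magea6 and Magea5 had differences of -2.41, -2.36, -2.35 and -2.12. In OT-p these 5 Magea genes were higher than in WT-p, by 0.29 to 0.39. They are near-identical neighbours, and their probes may not tell them apart. Of the 12 tested members of the Magea list, 7 fell, 1 rose and the median was -0.61, beside a median of 0.005 over all genes.

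Some genes fell to background in TO-p. Of all genes tested, 35 were well above background in all 4 WT-p samples and in no TO-p sample, and 13 the other way round. Kcnip4, which binds voltage-gated potassium channels, read 9.40, 9.81, 8.94 and 9.14 in WT-p and was not well above background in TO-p, at least 8.68-fold lower (limma adjusted p = 3.65e-14). Its second tested probe gave -1.16. The bound was at least 3.86-fold for Lad1, an anchoring filament protein, at least 3.3-fold for Arhgdib, at least 3.15-fold for Lrrc4c, a synaptic adhesion protein, and at least 3.02-fold for Cd302, a C-type lectin receptor. Kcnip4 and Arhgdib were above background in no OT-p sample and Lad1 in 1, whereas Lrrc4c and Cd302 were above background in all 4. In the opposite direction, Osbpl3, a sterol-binding protein, was at least 1.68-fold higher in TO-p, and Trim29 at least 1.53-fold.

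The other genes of the 20 furthest lower were Pf4, Ssbp4, Akip1, Isyna1, Samsn1, Prr9, Angptl4 and Ckb. Pf4, a chemokine of platelets, fell by 2.90 and Akip1, a partner of protein kinase A, by 2.45, each with 1 of 4 TO-p samples above background. OT-p minus WT-p was -2.61 for Pf4 and -2.29 for Akip1. Ssbp4 (-2.53) and Isyna1, which makes inositol phosphate (-2.22), are read by probes of adjacent genes on chromosome 8. OT-p minus WT-p was -0.50 for Ssbp4 and -2.06 for Isyna1. Samsn1, an adaptor of haematopoietic cells, moved in opposite directions in the transfected lines, -2.18 in TO-p and 1.502 in OT-p. Prr9, Angptl4 (an inhibitor of lipoprotein lipase) and Ckb (brain creatine kinase) fell by 2.16, 2.09 and 2.02. In differentiation medium TO cells differed from untransfected cells by -0.38 for both Prr9 (not called) and Ckb (called) and by -0.22 for Angptl4 (not called).

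The gene furthest higher was Dpyd, the rate-limiting enzyme of pyrimidine breakdown. It read 8.20, 8.18, 7.88 and 8.28 in WT-p and 11.01, 11.74, 11.67 and 11.15 in TO-p, a 9.43-fold difference (3.24, SE 0.11, limma adjusted p = 5.12e-16). OT-p minus WT-p was -0.73. Slc7a14, a lysosomal transporter of the cationic amino acid family expressed in neurons, read 11.17, 12.09, 11.52 and 12.04 in WT-p and 14.53, 14.45, 14.98 and 14.29 in TO-p (2.87, SE 0.149). WT-p 1 and 3 were the lower WT-p samples here, and without them the difference was 2.50. Mrps28, of the mitochondrial ribosome, was 5.7-fold higher, and Ptpn18, a tyrosine phosphatase on chromosome 1, 5.18-fold. Ptpn18 read 9.05 to 9.68 in WT-p and 11.46 to 11.99 in TO-p.

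**Figure D1:**
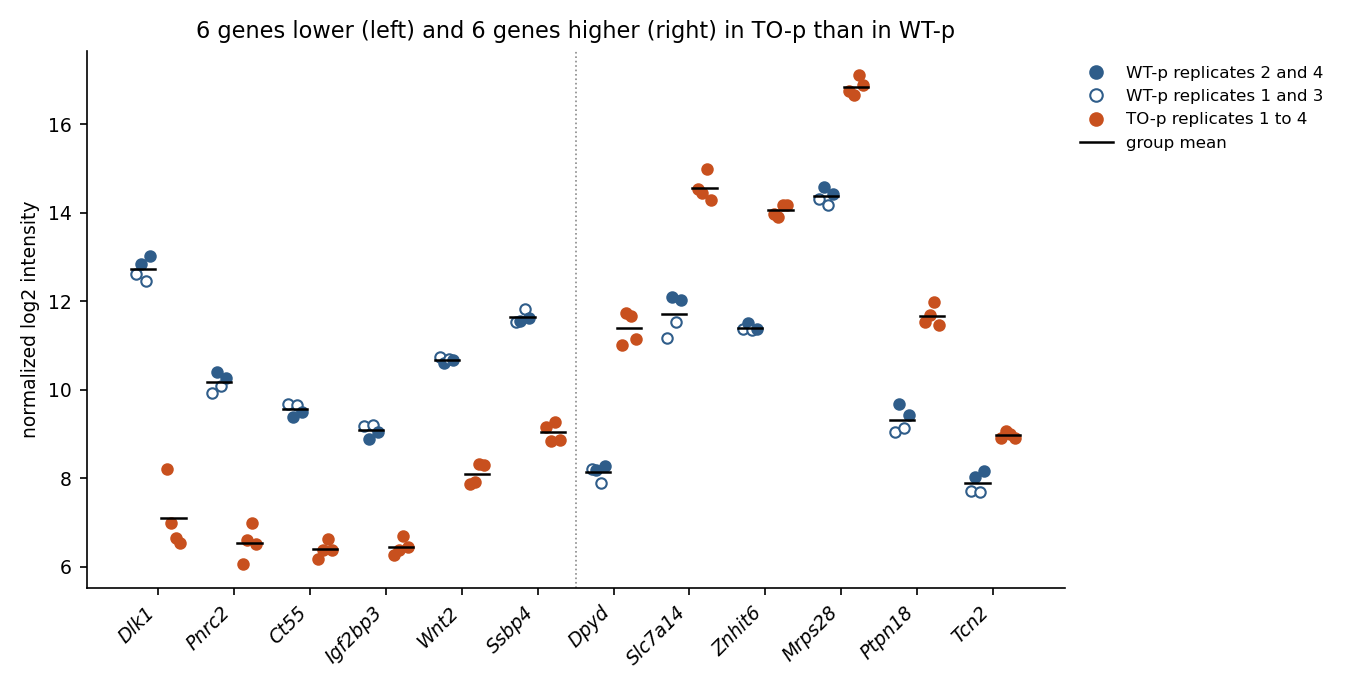
Normalized log2 intensity (vertical axis) of 12 genes in each of the 4 WT-p samples (blue, open for replicates 1 and 3) and 4 TO-p samples (orange), with horizontal bars at the group means. The groups do not overlap for any of these genes, and Dlk1 has the widest gap, with WT-p from 12.47 to 13.01 and TO-p from 6.55 to 8.21.

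Other genes among the 20 furthest higher lay on several chromosomes. C1s1, a complement protease, rose by 2.04 (its probes gave 1.00 and 2.04) and Angpt2, a ligand of the Tie2 receptor, by 1.92. Pacsin1, which acts in endocytosis of synaptic vesicles, rose by 1.81 in the fit without TO-p 1, whose spot was left out. Its values were 9.52, 10.54, 9.07 and 10.22 in WT-p and 11.48 to 11.79 in TO-p, and without WT-p 1 and 3 the difference was 1.31. Glod5 and H2-DMb1, a chaperone of MHC class II, both rose by 1.81, and Slc52a3, a riboflavin transporter, by 1.79, though its probes ranged from 0.59 to 1.79. Except H2-DMb1 and Angpt2, the genes named in this paragraph differed from untransfected cells less in differentiation medium, as listed in the closing section.

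Chromosome 3 held 13 of the 20 genes furthest higher among genes with a symbol, and 3 transcripts without one (BE981836, BC060266 and ENSMUST00000064718) whose differences lay in the same range. It held 26 of the 140 genes higher over 2-fold (18.6%), beside 4.61% of all genes tested. Of the 26, 18 lay in 3 stretches of neighbouring genes and 8 elsewhere on the chromosome, among them Mrps28. The stretches were picked out after their values were seen and are therefore described without a test (positions on mm8, as in the files). In the distal stretch (chr3:145090800-146132500, 1.042 Mb), 10 of 11 tested genes were higher in TO-p and the median difference was 2.33. They included Znhit6, which acts in small nucleolar RNA assembly (2.60), Syde2 (2.48), Col24a1, a fibrillar collagen (2.43), Ddah1, which degrades asymmetric dimethylarginine (2.37), and Bcl10, an adaptor of NF-kB signalling (2.33). Odf2l (2.10), 2410004B18Rik (2.03) and Mcoln2, a lysosomal cation channel (1.83), were the others named by the rule. Ccn1, a secreted matrix protein inside the stretch, did not pass the test (0.08, limma adjusted p = 0.473).

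Single samples showed how even this stretch was. Bcl10 read 11.42, 11.56, 11.27 and 11.56 in WT-p and 13.65, 13.97, 13.91 and 13.85 in TO-p. Znhit6 read 11.37, 11.52, 11.35 and 11.38 in WT-p and 13.97, 13.89, 14.17 and 14.18 in TO-p. The groups were over 2 log2 units apart in both genes. Over the 11 genes, the median was 2.15 for TO-d minus WT-d, with the same 10 genes called, and 0.01 for OT-p minus WT-p, where 4 were higher and 1 lower.

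In the proximal stretch of chromosome 3 (chr3:31091140-32390420, 1.299 Mb), all 6 tested genes were higher and the median was 2.15. Besides Slc7a14 they included Skil, a repressor of TGF-beta signalling (2.03), Prkci, an atypical protein kinase C of cell polarity (1.89), and Kcnmb2, a subunit of calcium-activated potassium channels (1.57). The median was 1.64 in differentiation medium and 0.14 for OT-p minus WT-p. Dpyd lay next to Ptbp2, a neuronal splicing regulator, which was higher by 1.54 (SE 0.0805, limma adjusted p = 1.24e-12).

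On chromosome 5 a stretch of 24 tested genes from Kctd10 to Rnf10 (chr5:114625500-115502900, 0.877 Mb) held 21 lower genes and none higher, with a median of -0.76. It held 2 genes that sit side by side, Mmab, which makes adenosylcobalamin, the cofactor of methylmalonyl-CoA mutase, and Mvk, mevalonate kinase of sterol synthesis. Mmab read 8.81, 9.12, 8.80 and 9.12 in WT-p and 7.88, 7.75, 6.00 and 8.00 in TO-p (-1.35, SE 0.264, limma adjusted p = 3.54e-04). TO-p 3 was far below the other TO-p samples, and the second probe of the gene gave -0.67. Mvk read 8.62 to 8.85 in WT-p and 7.62 to 7.82 in TO-p (-0.998, SE 0.0939, limma adjusted p = 3.01e-08). Mlec, an ER lectin (-1.40), Sppl3, an intramembrane protease (-1.34, with its probes from -1.34 to -0.10), Ube3b, a ubiquitin ligase (-1.31), Kctd10 (-0.94), Acads, a fatty acid dehydrogenase (-0.73), the cation channel Trpv4 (-0.67) and Rnf10 (-0.55) were lower as well. In differentiation medium 20 of the 24 were lower (median -0.77), and for OT-p minus WT-p 4 were higher and 3 lower (median -0.05).

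A stretch of chromosome 13 (chr13:42195210-43679780, 1.485 Mb) had 11 of 11 tested genes higher, with a median of 0.78. It held Sirt5, a mitochondrial lysine desuccinylase, which read 8.76, 8.73, 8.19 and 8.93 in WT-p and 9.41, 9.76, 9.95 and 9.77 in TO-p (1.12, SE 0.123, limma adjusted p = 2.90e-07). Phactr1, a regulator of protein phosphatase 1 and actin (1.05), Ranbp9 (0.79), Rnf182 (0.78) and Hivep1 (0.55) were others. All 11 were higher in differentiation medium too (median 0.79), and the median for OT-p minus WT-p was 0.17. Over the genome 34 runs of at least 5 neighbouring tested genes were called in the same direction, 21 higher and 13 lower, and 4 of these had a median beyond 1 in either direction.

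**Figure D2:**
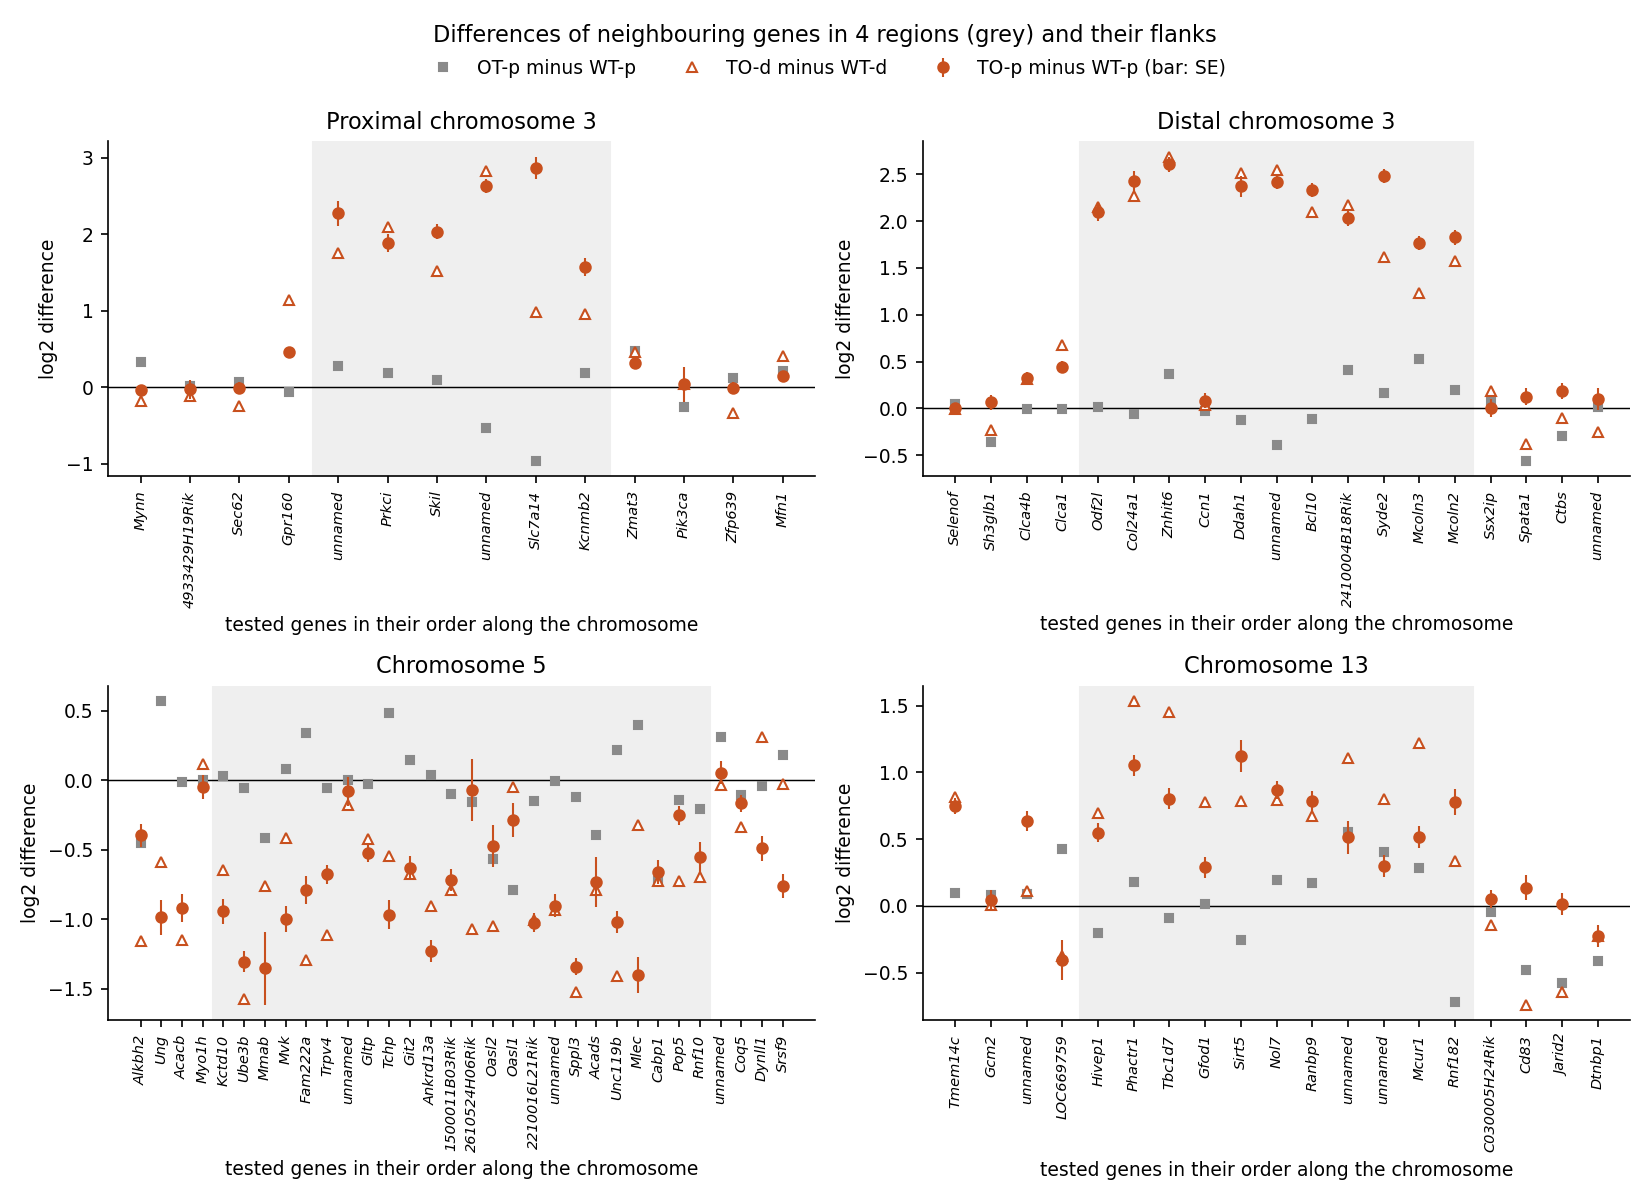
Log2 difference (vertical axis) of the tested genes in their order along 4 stretches, grey, with 4 genes on each side. Orange circles are TO-p minus WT-p with SE bars, open triangles TO-d minus WT-d and grey squares OT-p minus WT-p. The circles stand at medians of 2.15 (proximal chromosome 3), 2.33 (distal chromosome 3), -0.76 (chromosome 5) and 0.78 (chromosome 13). In the same order the medians are 1.64, 2.15, -0.77 and 0.79 for the triangles and 0.14, 0.01, -0.05 and 0.17 for the squares. Single genes depart from these medians, such as Slc7a14 with its circle at 2.87, triangle at 0.99 and square at -0.96.

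Whole chromosomes also differed in their balance of calls. On chromosome 8, 281 of 850 tested genes (33.1%) were higher and 55 (6.47%) lower, with a median of 0.103. On chromosome 5, 306 of 1013 (30.2%) were lower and 107 higher, and on the X chromosome 187 of 514 (36.4%) were lower and 42 higher, with medians of -0.085 and -0.121. These balances kept their direction with loess alone (130 higher and 59 lower on chromosome 8, 50 and 332 on chromosome 5, 14 and 199 on X) and without WT-p 1 and 3 (181 and 32, 56 and 190, 14 and 134). The 3 tested genes of the mitochondrial chromosome were higher in TO-p (median 0.99), and in OT-p all 3 were higher than in WT-p as well (median 1.27).

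**Figure D3:**
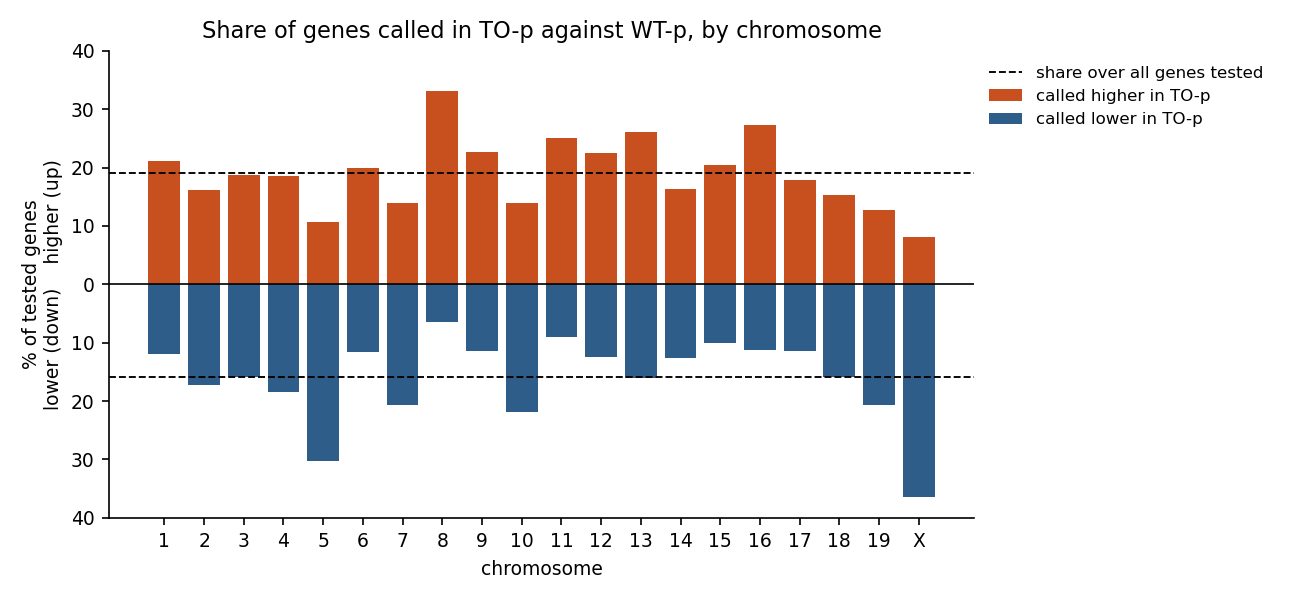
Percentage of tested genes (vertical axis) called higher (orange, upward) and lower (blue, downward) in TO-p than in WT-p on each chromosome (horizontal axis), with dashed lines at the shares over all genes, 19.0% and 15.9%. Among chromosomes with over 3 tested genes, chromosome 8 has the largest percentage of higher genes and X the largest percentage of lower ones.

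The cobalamin genes did not move together. Tcn2 read 7.72, 8.02, 7.69 and 8.17 in WT-p and 8.90, 9.08, 9.00 and 8.91 in TO-p, 2.13-fold higher (1.09, SE 0.0948, limma adjusted p = 8.40e-09). OT-p minus WT-p was -0.31, and TO-p and OT-p differed by 1.40 (limma adjusted p = 8.60e-11). The labels do not say whether the construct holds mouse or human transcobalamin, so it is not known whether this probe reads it. Abcd4, the lysosomal exporter, rose by 0.92 (SE 0.133, limma adjusted p = 1.58e-05; TO-p 1 left out). The receptor Cd320 (-0.06, SE 0.0985), Mmachc (-0.24, SE 0.108), Mtr (0.13, SE 0.0874) and Mmut (0.09, SE 0.06) did not pass the test, with limma adjusted p from 0.0869 to 0.68. The signs of Cd320, Mtr and Mmut turned under some settings. Of the 22 tested members of the cobalamin list, 5 rose and 4 fell (22.7 and 18.2%), near the shares over all genes. Their median of 0.085 turned to -0.037 with loess alone, where the median over all genes was -0.0769. Of 34 folate, methionine and serine genes, 4 rose and 8 fell (1 and 4 without WT-p 1 and 3), among them Odc1, of polyamine synthesis (-0.54). The mitochondrial enzyme Aldh1l2 rose (0.29), a call lost without WT-p 1 and 3 (0.12, limma adjusted p = 0.346).

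Elavl1, which encodes HuR, read 11.98, 12.23, 11.99 and 12.05 in WT-p and 12.27, 12.19, 12.37 and 12.23 in TO-p. The groups overlap, the difference of 0.18 (SE 0.0805) did not pass the test (limma adjusted p = 0.0925), and its 3 probes ranged from -0.66 to 0.18. Sirt1, a nuclear deacetylase, was lower in all TO-p samples but TO-p 1, at 9.91, 9.45, 9.46 and 9.54 against 10.32, 9.90, 10.18 and 9.89 (-0.47, SE 0.0889, limma adjusted p = 2.80e-04, and -0.31 without WT-p 1 and 3). In OT-p it was higher than in WT-p, by 0.67, and TO-p and OT-p differed by -1.13 (limma adjusted p = 8.76e-10). Carm1 fell by 0.32 (limma adjusted p = 1.86e-04; its second probe gave -0.02). Prmt1 (-0.25) and the PP2A catalytic subunit Ppp2ca (-0.01) did not pass the test, with limma adjusted p of 0.191 and 0.951. Of the 31 tested arginine methyltransferase and PP2A genes, 6 rose (19.4%), among them Prmt7 (0.59). A further 10 fell (32.3%), among them Ppme1, the PP2A methylesterase (-0.37), beside 19.0% of all genes higher and 15.9% lower. The median of -0.085 turned to 0.009 without WT-p 1 and 3, where 3 rose and 3 fell.

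Of 54 tested splicing factors 22 fell (40.7%) and 5 rose, beside 15.9% of all genes lower. Of 42 mRNA stability genes 13 fell (31.0%) and 4 rose. Of 67 export and nuclear pore genes 13 fell, a share of 19.4% that is near that of all genes, and 4 rose. Srsf9, an SR protein, fell by 0.76, and the difference for the neuronal splicing factor Rbfox3 was -1.0003. Srsf9 lies just beyond the lower stretch of chromosome 5, in a run of 6 lower genes. The pore protein Pom121 fell by 0.60, and by 0.39 without WT-p 1 and 3. Rbm3, a cold-inducible RNA-binding protein, read 14.40, 14.08, 14.77 and 14.33 in WT-p and 13.23, 13.07, 13.29 and 13.81 in TO-p (-1.14, SE 0.15), but its second probe gave 0.06. Tial1, a stress granule protein, fell by 0.80 and rose in differentiation medium by 0.72. The counts of lower splicing and export genes depended on WT-p 1 and 3. Without them 7 splicing factors fell and 3 rose (hnRNP and SR splicing factors), and 4 fell and 1 rose (mRNA export and nuclear pore). The mRNA stability list (Hu family and other mRNA stability proteins) changed less. There 10 fell and 0 rose, and the median went from -0.0435 to -0.0417. Of the lower calls over all genes, 47.7% were kept without WT-p 1 and 3.

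Cell cycle genes were lower in TO-p. Of 63 tested genes of DNA replication and G1/S, 40 fell (63.5%) and 2 rose, with a median of -0.40, and of 59 mitotic genes 26 fell (44.1%) and 0 rose, with a median of -0.29. Among the first were Ung, which removes uracil from DNA (-0.99), Ccne2, a cyclin of S-phase entry (-0.80), and the transcription factor E2f1 (-0.67). Ung lies beside the lower stretch of chromosome 5, among the 4 tested genes before it, and whether its fall goes with that position was not tested. Among the second were the condensin subunit Smc2 (-0.78), Cdk1, the kinase of mitotic entry (-0.66, not called without WT-p 1 and 3, limma adjusted p = 0.167), Kif4 (-0.62) and the kinetochore scaffold Knl1 (-0.57). The genes whose promoters are printed above, which lie outside the naming rule and were chosen after their values were seen, both fell. Pola1, of DNA polymerase alpha, read 11.86, 11.88, 12.08 and 12.03 in WT-p and 11.43, 11.18, 11.33 and 11.65 in TO-p (-0.59, SE 0.0958, limma adjusted p = 5.36e-05). Cdc6, the replication licensing factor, read 10.48, 9.66, 9.65 and 9.82 in WT-p and 8.96, 8.90, 8.57 and 9.87 in TO-p, where TO-p 4 reached the WT-p range (-0.78, SE 0.22, limma adjusted p = 0.00782). Cdc6 was not called without WT-p 1 and 3 (-0.68, limma adjusted p = 0.0714).

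The same samples stood out in the lists as wholes. As the median deviation of the members from their means over the 8 samples, the replication list (DNA replication and G1/S) stood at -0.15, -0.39, -0.36 and 0.16 in TO-p 1 to 4 and 0.29, -0.06, 0.38 and 0.15 in WT-p 1 to 4. TO-p 4 thus overlapped WT-p, and WT-p 1 and 3 were the highest. The mitotic list (mitosis and G2/M) stood at -0.17, -0.22, -0.24 and 0.04 in TO-p and 0.19, 0.07, 0.21 and 0.18 in WT-p, without overlap. Without WT-p 1 and 3, 14 replication genes fell and 0 rose (median -0.23), and 11 mitotic genes fell and 0 rose (median -0.25). In OT-p the balance ran the other way, with 23 replication genes higher than in WT-p and 3 lower. OT-p and TO-p are both set against the same WT-p samples.

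Interferon-stimulated genes were the list with the largest share of higher members. Of 46 tested, 24 rose (52.2%) and 3 fell, with a median of 0.34. With the filter set to genes above background in both groups, 36 were tested, of which 18 rose and 3 fell (median 0.34). Oas1a and Oas1c lie in a run of 5 neighbouring higher genes of the Oas1 family on chromosome 5, whose probes may not tell them apart. Oas1a, which activates RNA degradation on sensing double-stranded RNA, read 6.28, 8.07, 7.98 and 7.96 in WT-p and 9.29, 9.46, 9.38 and 9.11 in TO-p (1.51, SE 0.35, limma adjusted p = 0.00174). WT-p 1 stood far below the others and was not well above background. Igtp, an immunity-related GTPase (1.34, SE 0.187), Parp14 (1.24, SE 0.131) and the antiviral GTPase Mx2 (1.16, SE 0.152) were higher in all measured TO-p samples than in any WT-p sample. Parp12, of the same family as Parp14, fell (-0.46).

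Bst2, Oas1c, Isg15 and Ifit1 were chosen after their values were seen, to show genes of the interferon list that carry the same promoter core and differ in direction. Bst2, which tethers budding viruses, read 12.02, 12.36, 12.15 and 12.31 in WT-p and 12.91, 13.10, 13.27 and 13.15 in TO-p (0.86, SE 0.065, limma adjusted p = 8.03e-10). Oas1c, a neighbour and near-copy of Oas1a whose probe may not be specific, rose by 0.92, and by 0.55 without WT-p 1 and 3. Isg15, a ubiquitin-like modifier, read 9.39, 10.52, 9.40 and 10.26 in WT-p and 9.18, 9.13, 9.38 and 9.46 in TO-p, a difference of -0.67 (SE 0.211, limma adjusted p = 0.0167), and -1.22 without WT-p 1 and 3. WT-p 1 and 3 lay within the range of TO-p for Isg15 and WT-p 2 and 4 above it. Ifit1, which binds viral RNA, was not called (-0.25, limma adjusted p = 0.465) and fell without WT-p 1 and 3 (-0.85, limma adjusted p = 0.0151).

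As a whole the list (interferon-stimulated and RNA sensor genes) stood at 0.09, 0.29, 0.20 and 0.11 in TO-p and -0.22, -0.06, -0.28 and -0.11 in WT-p. The groups did not overlap, and WT-p 1 and 3 were again the samples furthest from TO-p. Without them 19 members rose and 6 fell (median 0.24), and with loess alone 20 rose and 5 fell (median 0.23). For OT-p minus WT-p 7 rose and 19 fell. MHC class I and antigen processing genes followed in part, with 9 of 24 higher and 1 lower (median 0.23). H2-M3, a non-classical class I molecule, rose by 1.19 and the immunoproteasome subunit Psmb8 by 0.80. Without WT-p 1 and 3, 5 were higher and 1 lower, and the median of MHC class I and antigen processing was 0.05. Of 37 constitutive proteasome subunits 12 fell (32.4%), Psmd9 by 0.57, and 1 rose, but without WT-p 1 and 3 it was 5 and 1, with the median going from -0.103 to -0.016.

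Neuronal genes were more often higher than lower, in numbers that depended on the scaling. Of 48 tested synaptic vesicle and secretory granule genes 21 rose (43.8%) and 1 fell, of 49 ion channels 22 rose (44.9%) and 3 fell, and of 39 genes of the neuronal cytoskeleton and adhesion 15 rose (38.5%) and 1 fell. Their medians were 0.17, 0.20 and 0.19, beside 19.0% of all genes higher and a median of 0.005. With loess alone the counts were 11 higher and 3 lower (synaptic), 16 and 3 (ion channels) and 2 and 1 (cytoskeleton and adhesion). Of all 16239 genes, loess alone called 1329 higher and 2778 lower, against 3091 and 2581 in the main fit. Pcsk2, a prohormone convertase, read 9.70, 10.03, 9.76 and 10.09 in WT-p and 10.76, 11.00, 11.40 and 11.02 in TO-p (1.12, SE 0.0905, limma adjusted p = 2.46e-09). Its second probe gave 0.30, and OT-p was higher than WT-p by a like amount, 1.11. Chga, a granule protein, rose by 0.48, the adhesion molecule Nrcam by 0.89, the synaptic vesicle protein Syn2 by 0.69, and the potassium channel partners Kcnab1 and Kcnip3 by 0.80 and 0.75. Kcnip3 differed by 0.43 without WT-p 1 and 3. Kcnab1 was not called without WT-p 1 and 3 (0.47, limma adjusted p = 0.125).

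With WT-p 1 and 3 left out the counts were 7 higher and 2 lower for synaptic vesicle and secretory granule genes, 12 and 1 for ion channels, and 3 and 1 for neuronal cytoskeleton and adhesion. The medians were then 0.09, 0.12 and 0.02. Without these samples 10.2% of all genes were higher and 8.79% lower. In the cytoskeleton list the samples overlapped, at 0.09, 0.11, 0.02 and -0.01 in TO-p and -0.15, 0.04, -0.22 and 0.01 in WT-p. Of 51 axon guidance genes 16 rose (31.4%) and 5 fell (9.8%), among the first the semaphorin Sema4a (0.67). The median of 0.083 turned to -0.005 with loess alone, where 8 rose and 5 fell and the median over all genes was -0.0769. The counts were 8 and 4 without WT-p 1 and 3. Genes of catecholamine identity split. Slc18a1, a vesicular monoamine transporter (1.45), and Dbh, which makes noradrenaline (0.69), rose. Ddc, which makes dopamine (-0.98, second probe 0.11), and the sympathetic transcription factor Gata2 (-0.93) fell. Th, the rate-limiting enzyme of catecholamine synthesis, read 11.81, 11.996, 11.86 and 12.24 in WT-p and 11.9995, 12.03, 11.85 and 11.88 in TO-p and did not pass the test (-0.01, limma adjusted p = 0.939).

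**Figure D4:**
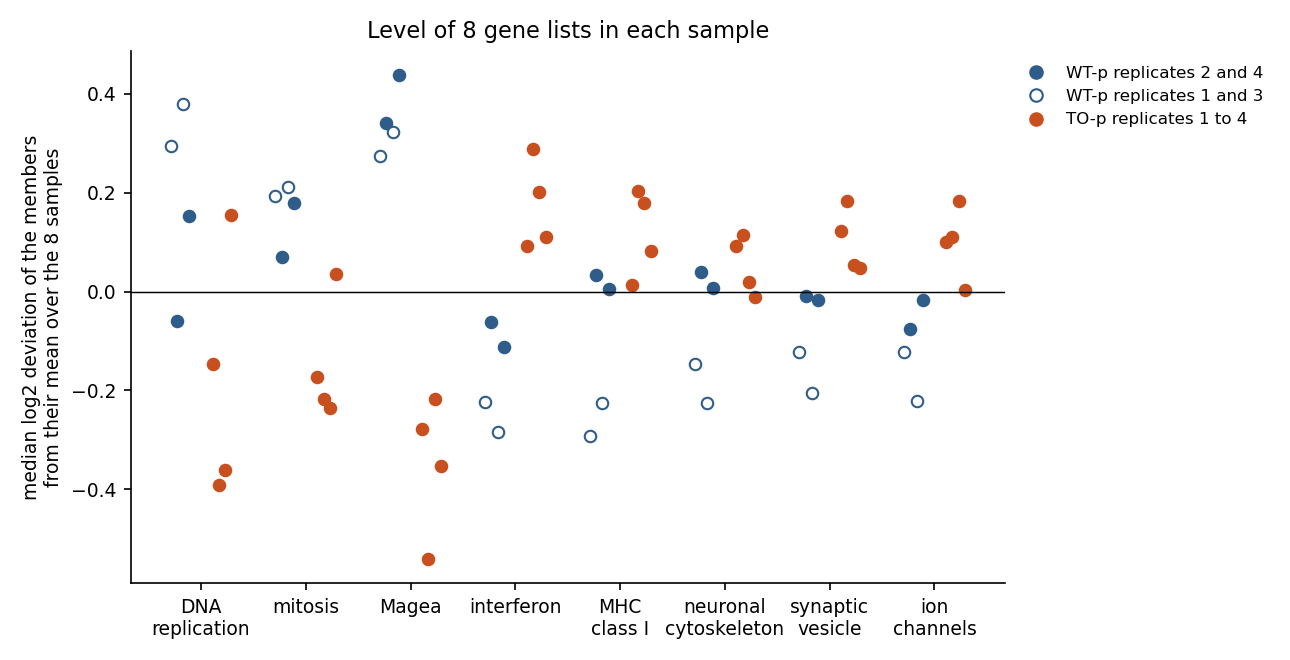
Median log2 deviation (vertical axis) of the members of 8 gene lists from their means over the 8 samples, for each WT-p sample (blue, open for replicates 1 and 3) and TO-p sample (orange). In the interferon list all TO-p samples (0.09 to 0.29) lie above all WT-p samples (-0.28 to -0.06), while in the DNA replication list TO-p 4 (0.16) overlaps WT-p.

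Stress genes differed by small amounts. Hspa5, the ER chaperone BiP, read 14.46, 14.46, 14.29 and 14.21 in WT-p and 14.81, 14.72, 14.92 and 14.67 in TO-p (0.43, SE 0.0744, limma adjusted p = 1.02e-04). Ddit3 (CHOP), a transcription factor of ER stress, read 11.97, 12.77, 12.13 and 12.55 in WT-p and 12.73 to 12.85 in TO-p. It rose by 0.47 (SE 0.114, limma adjusted p = 0.00237), but WT-p 2 reached the TO-p range, and without WT-p 1 and 3 the difference was 0.13 (limma adjusted p = 0.369). Herpud1, of ER-associated degradation, rose by 0.45. Of 38 unfolded protein response genes 10 rose (26.3%) and 5 fell (13.2%), beside 19.0% and 15.9% of all genes. The median was 0.097 (-0.037 with loess alone, beside -0.0769 over all genes), and without WT-p 1 and 3 the counts were 6 and 2. Of 34 integrated stress response genes 8 rose (23.5%) and 3 fell (8.82%). Their median was 0.077 (-0.053 with loess alone, beside -0.0769 over all genes), and without WT-p 1 and 3 the counts were 4 and 1. Of 32 heat shock genes 10 rose (31.2%), Dnajb4 by 0.85, and 2 fell (6.25%). With loess alone 3 rose and 2 fell, beside 1329 of all 16239 genes higher and 2778 lower. Without WT-p 1 and 3, 9 heat shock genes rose and 2 fell, and their median went from 0.108 to 0.209.

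**Figure D5:**
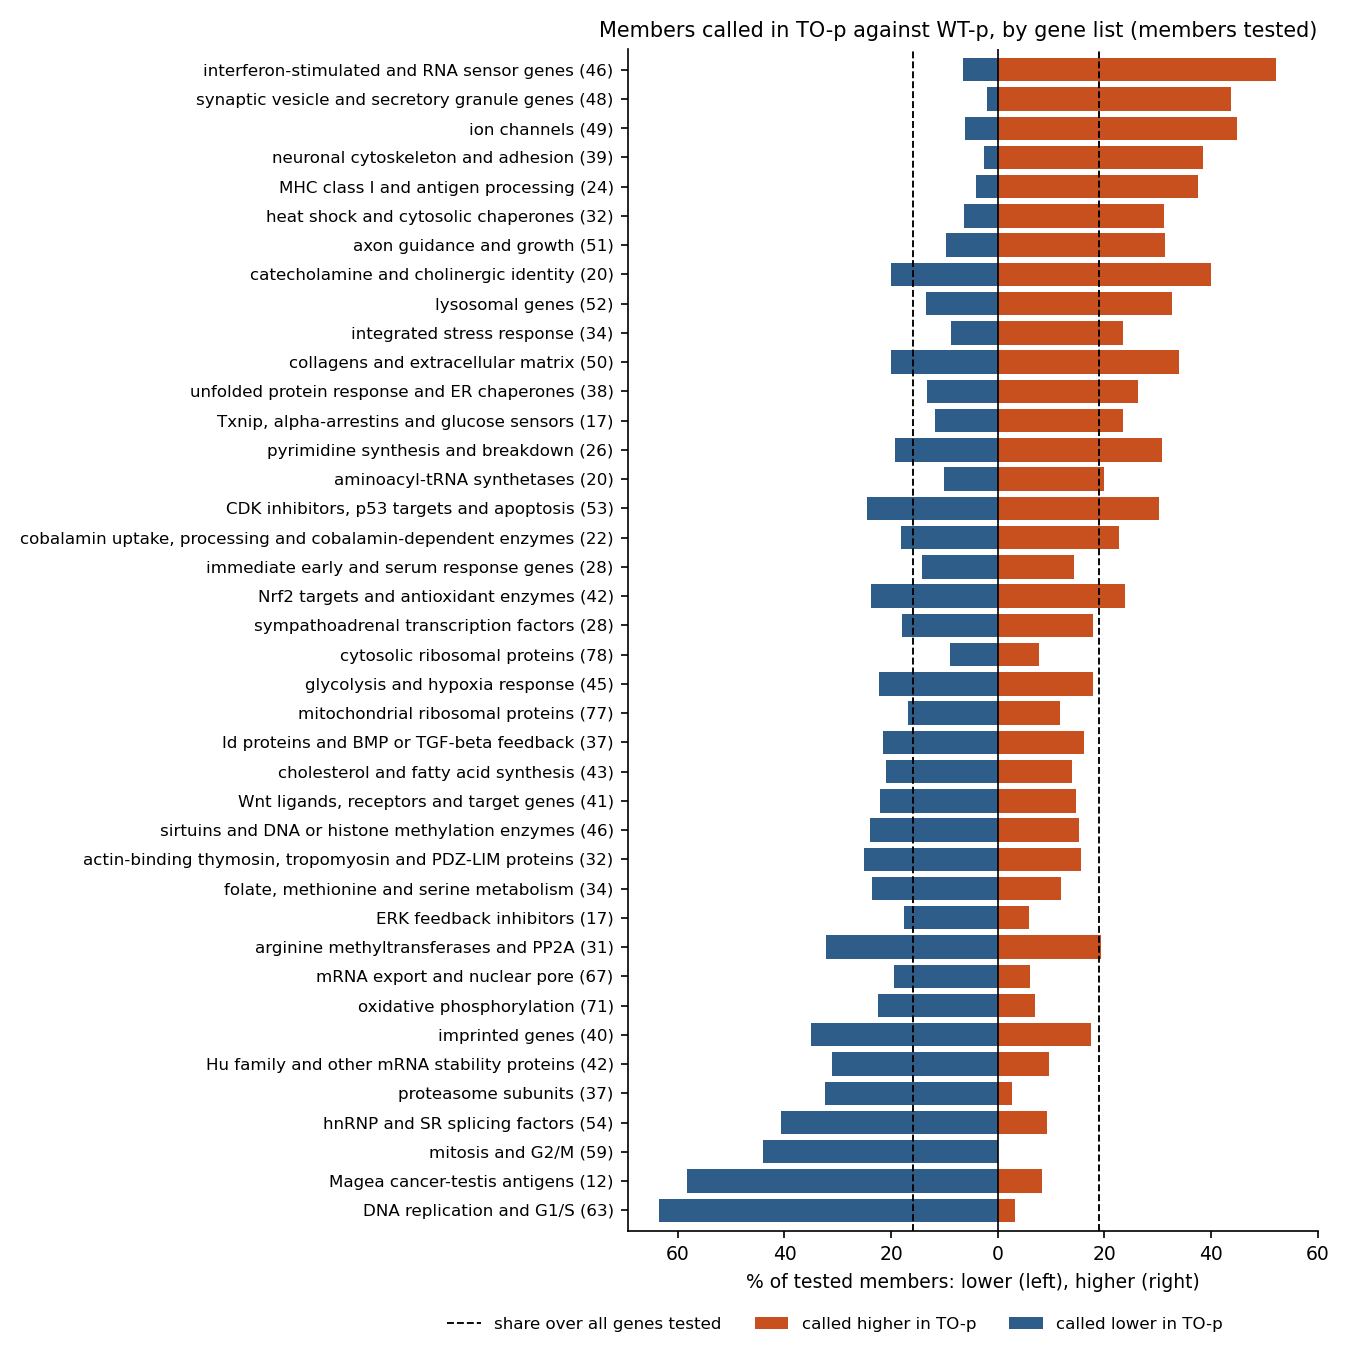
Percentage of tested members (horizontal axis) called higher (orange, right) and lower (blue, left) in TO-p than in WT-p for 40 gene lists, with the number tested in brackets and dashed lines at the shares over all genes. The interferon list (52.2% higher) is at the top and DNA replication (63.5% lower) at the bottom.

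Genes over 2-fold in proliferation medium were called the same way in differentiation medium more often than all called genes. A larger difference passes the second test more easily, so these counts cannot tell whether large differences are shared more than small ones. The small differences were not counted on their own, and all called genes include the large ones. TO-d against WT-d, which uses other samples, some of them on the same arrays, called 3729 of all 16239 genes higher and 3833 lower. Of the 140 genes higher over 2-fold in proliferation medium, 79 were also called higher in differentiation medium and 8 called lower, and of the 104 lower ones, 91 and 2. Of all 3091 higher calls, 1223 (39.6%) were shared and 470 (15.2%) were called the other way, and of the 2581 lower calls 913 (35.4%) and 371 (14.4%). Across genes, which are not independent replicates, the Pearson correlation of the differences in the media was 0.321 over all 16239 genes and 0.838 over the 244 genes beyond 2-fold. The 244 were selected by their call and size in proliferation medium. Such a selection by itself raises the correlation, so the 2 values are not comparable. The difference itself between the media passed the test in 36.5% of genes.

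Of the genes called in opposite directions in the media, those with the largest gap that were higher in TO-p were Galnt15, Prss56, Snhg16, Tram2 and Tubb2b. Galnt15, a mucin-type glycosyltransferase, was 0.81 higher in TO-p and had a difference of -2.57 in differentiation medium. It read 6.70, 8.54, 6.94 and 7.78 in WT-p and 8.26, 8.45, 8.62 and 7.50 in TO-p, so the groups overlap, and without WT-p 1 and 3 the difference was 0.12 (limma adjusted p = 0.758). Tubb2b, a neuronal beta tubulin (0.63), Tram2 (0.87) and the small RNA host gene Snhg16 (0.77) likewise lost the call without WT-p 1 and 3, with limma adjusted p of 0.429, 0.694 and 0.0762. Prss56, a serine protease, kept it (1.43, and 1.08 without them). The genes lower in TO-p and higher in differentiation medium were Sfpq, a splicing factor of paraspeckles (-0.50 and 2.32, with probes from -0.50 to 0.28 in proliferation medium), Pde4dip (-0.39 and 1.75, with probes from -0.39 to 0.21), Rbks, ribokinase (-0.72 and 1.41), Tfrc, the transferrin receptor (-0.78 and 1.11), and Mgll, monoacylglycerol lipase (-0.66 and 1.197). Of these, Rbks alone kept the call without WT-p 1 and 3 (-0.49, limma adjusted p = 0.0345).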

How the data were processed

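Cy5 and Cy3 signals of 12 Agilent arrays on 3 slides, each holding 2 samples, were read from the deposited scanner files. Per the file headers, the intensity values came from Feature Extraction 10.5.1.1 (protocol GE2-v5_95_Feb07), with probe positions on mm8. The deposited series table was used as an alternative, and its scale and centring are not given in the sources used here. Each sample's own dye was background-corrected (normexp, offset 50, with the channel's median background for spots marked as background outliers). Loess within arrays, then Aquantile between arrays, gave log2 intensities from the deposited signals. Control and outlier spots were left out. Each gene was read by its brightest probe, provided every sample in 1 or more of the 6 groups had it well above background, which left 16239 of 27591 genes. A separate-channel limma model (R 4.3.3, limma 3.58.1, statmod 1.5.0) had 6 group means, a dye term and an intraspot correlation of 0.452. Benjamini-Hochberg adjustment ran over all genes tested, and a gene was called at an adjusted p under 0.05. The script was tested on simulated data. Genes named are the 20 furthest in each direction with a symbol whose samples do not overlap, up to 4 members a direction in each of 40 lists, up to 8 genes a direction above background in only 1 group, called genes in runs of at least 5 neighbours, up to 5 a direction with opposite calls in the media, and 15 cobalamin and related genes read out always. The members, lists and rules were chosen with earlier results of these data known. Bst2, Isg15, Ifit1, Cdc6, Pola1 and Ccn1 fall outside the rule and were chosen after their values were seen. The alternatives were other background, scaling, filter, dye, slide and array terms, other probe rules and thresholds, and samples left out. The number of arrays limits the precision. Some genes are not reported here.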

Additional observations from a re-analysis of the deposited data

Results flagged for a closer look

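In 269 groups of 4 samples, 5 held a sample far from the others, where chance gives about 1 in 20 groups. These were Mmab in TO-p 3 (6.0, log2 intensity), Oas1a in WT-p 1 (6.28), Znhit6 in WT-p 2 (11.52), Ptbp2 in WT-p 2 (10.79) and Nrcam in TO-p 3 (12.96).

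For 85 of the 138 genes read out in the text, the difference of TO from untransfected cells itself differed between the media (limma adjusted p under 0.05 for the difference of differences), beside 36.5% of all genes. Some of the 138 were picked by the size of this same value, and others by a large difference in proliferation medium. That choice by itself raises the count, so it is not comparable with the 36.5%. The values that follow are the log2 difference in proliferation medium less that in differentiation medium.

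Among genes of cobalamin and methyl group metabolism the value was 0.51 for Tcn2, 0.45 for Cd320, 0.5 for Abcd4, -0.41 for Mtr and -0.66 for Mmut. It was -0.9 for Odc1 and -0.69 for Aldh1l2. Among methyltransferase, phosphatase and RNA-binding genes it was -1.02 for Prmt1, -0.4 for Carm1, 0.37 for Prmt7, -0.42 for Ppp2ca, -0.73 for Srsf9, -1.09 for Rbm3, -1.52 for Tial1 and -0.82 for Igf2bp3. Cd320, Mtr, Mmut, Prmt1 and Ppp2ca were called in differentiation medium and not in proliferation medium.

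Among the genes furthest lower it was -1.25 for Ct55, 0.68 for Wnt2, -0.51 for Akip1, -0.71 for Samsn1, -1.77 for Prr9, -1.87 for Angptl4 and -1.63 for Ckb. For the Magea genes it was -0.78 (Magea8), -0.84 (Magea3), -0.7 (Magea1), -0.82 (Magea6) and -0.7 (Magea5). Among genes above background in 1 group alone it was 0.86 for Lad1, -1.56 for Arhgdib, -0.73 for Lrrc4c, 0.47 for Cd302, 0.62 for Osbpl3 and 0.44 for Trim29.

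Among the genes furthest higher it was 1.88 for Slc7a14, 0.46 for Mrps28, 0.87 for Syde2, 0.56 for Ptpn18, 0.99 for C1s1, 0.52 for Skil, 1.43 for Pacsin1, 0.89 for Glod5 and 1.43 for Slc52a3. In the stretches of neighbouring genes it was 0.62 for Kcnmb2, -0.59 for Mvk, 0.43 for Trpv4, -1.08 for Mlec, 0.44 for Rnf182 and -0.49 for Phactr1.

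Among cell cycle genes it was -1.01 for Smc2, -0.59 for Kif4 and -1.4 for Pola1, which was lower in TO-p and higher in TO-d than in the untransfected cells. Among interferon and antigen processing genes it was 0.87 for Igtp, 1.23 for Mx2, -0.39 for Parp12, 1.16 for Oas1c, 0.5 for Bst2, -0.98 for Isg15, 0.77 for H2-M3, 0.53 for Psmb8 and -0.32 for Psmd9. Among neuronal genes it was 0.58 for Nrcam, 2.58 for Tubb2b, 0.74 for Pcsk2, -0.63 for Syn2, 1.22 for Kcnip3, 0.72 for Sema4a and -0.9 for Ddc.

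Among stress, metabolic and matrix genes it was 0.47 for Ddit3, 0.49 for Dnajb4, -0.65 for Nqo1, 1.28 for Cda, 1.57 for Col1a1, 0.97 for Tgfbi, 0.42 for Tmsb4x, 0.55 for Gaa and 0.35 for Hba-a1. For the genes called in opposite directions it was 3.38 for Galnt15, 2.9 for Prss56, 2.75 for Snhg16, 2.68 for Tram2, -2.82 for Sfpq, -2.15 for Pde4dip, -2.13 for Rbks, -1.9 for Tfrc and -1.85 for Mgll.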

How the results depend on the processing

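The calls depended most on scaling and on which samples entered. Genes higher and lower in TO-p numbered 1329 and 2778 with loess alone, 1961 and 1513 with only the 8 samples fitted, and 2008 and 1654 without the array shared by both groups. They numbered 1655 and 1427 without WT-p 1 and 3, 1779 and 1390 with samples of one tube number averaged, 4088 and 3965 with every probe tested singly, and 140 and 104 over 2-fold. Leaving out 1 sample gave 2151 to 3402 higher and 1896 to 2817 lower. The replicate numbers did not pair the samples, and with the replicate block 3142 were higher and 2609 lower. List medians larger than the spread between samples turned sign as follows, where the cause was not tested. With loess alone they were -0.037 for cobalamin genes and -0.037 for the unfolded protein response, -0.053 for the integrated stress response, -0.048 for aminoacyl-tRNA synthetases, -0.005 for axon guidance, -0.010 for extracellular matrix, -0.023 for lysosomal genes and -0.012 for fibroblast markers. Loess alone gave a median of -0.0769 over all genes, and each of these list medians lay above it. With the background of marked spots as deposited, an alternative chosen after seeing the data, they were -0.027 for cobalamin genes, -0.018 for aminoacyl-tRNA synthetases and 0.017 for Nrf2 targets. Without WT-p 1 and 3 they were 0.009 for arginine methyltransferases and PP2A and -0.007 for fibroblast markers. Within slide 1 the median was -0.122 for fibroblast markers. Within slide 2 it was -0.032 for aminoacyl-tRNA synthetases, 0.016 for glia markers and -0.019 for fibroblast markers. Within slide 3 it was 0.088 for arginine methyltransferases and PP2A. Another 91 of 1012 list medians, in 16 lists whose reported median was within that spread and at most 0.0474 from 0, also turned sign. Among them were mitochondrial ribosomal proteins (0.049) and folate genes (0.011) without WT-p 1 and 3, catecholamine genes (0.119) without the shared array, and cholesterol (-0.131) and pyrimidine genes (-0.085) with loess alone. Genes turned sign as follows. Cd320 was 0.03 without the shared array and -0.11 to 0.05 with 1 sample left out. Mtr was -0.17 and Mmut -0.02 with the background as deposited, and Mmut -0.05 with loess alone. Ppp2ca was 0.04 with the series table, 0.00 with quantile scaling, 0.00 with slide as a covariate, 0.02 without the shared array, 0.12 without WT-p 1 and 3, 0.08 with tubes averaged and -0.08 to 0.06 with 1 sample left out. Th was 0.00 with the background as deposited, 0.00 with the replicate block and -0.08 to 0.09 with 1 sample left out. Aldh1l2 was -0.12 with the background as deposited, Galnt15 -0.08 within slide 3, Isg15 0.05 within slide 2 and Ccn1 -0.01 with the series table. Of the gene results, 3311 kept direction and side of the threshold, 98 lost the call, 6 gained it, 125 moved within a slide and 24 turned sign.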

Other observations

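Matrix, lysosomal and metabolic genes split in TO-p. Of 50 tested collagen and extracellular matrix genes, 17 were higher (34.0%) and 10 lower, beside 19.0% and 15.9% of all genes. Tgfbi, a secreted matrix protein, read 12.14, 12.82, 12.34 and 12.65 in WT-p and 13.69, 13.82, 14.09 and 13.69 in TO-p (1.30, SE 0.124, limma adjusted p = 3.67e-08). Of 52 lysosomal genes, 17 were higher (32.7%) and 7 lower, but with loess alone 5 were higher and 8 lower. Loess alone called 1329 of all 16239 genes higher and 2778 lower. Gaa, acid alpha-glucosidase, read 12.46 to 12.84 in WT-p and 13.45 to 13.69 in TO-p (0.89, SE 0.117). Without WT-p 1 and 3 the counts were 4 higher and 3 lower for lysosomal genes and 12 and 8 for collagens and extracellular matrix. Tmsb4x, which binds actin monomers, fell from 10.03, 10.23, 9.89 and 10.06 in WT-p to 8.45, 8.42, 8.53 and 8.12 in TO-p (-1.68, SE 0.0775, limma adjusted p = 1.14e-13).

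Of 45 genes of glycolysis and hypoxia response, 8 were higher (17.8%) and 10 lower (22.2%), beside 19.0% and 15.9% of all genes. Without WT-p 1 and 3 the counts were 3 and 14, beside 10.2% and 8.79% of all genes. Pdk1, which inhibits pyruvate dehydrogenase, read 9.31, 10.15, 9.31 and 10.19 in WT-p and 8.78, 7.92, 8.38 and 7.76 in TO-p (-1.41, SE 0.199, limma adjusted p = 9.54e-06). WT-p 1 and 3 were the lower WT-p samples, and without them the difference was -1.92. Cda, cytidine deaminase of pyrimidine salvage, read 8.54, 9.57, 8.63 and 9.26 in WT-p and 10.63, 10.60, 10.499 and 10.30 in TO-p (1.54, SE 0.147, limma adjusted p = 3.50e-08). Nqo1, a quinone reductase and Nrf2 target, rose by 0.41, and 10 of 42 members of its list rose and 10 fell (4 and 9 without WT-p 1 and 3). H19, an imprinted RNA, fell by 0.82. Of 40 imprinted genes 7 were higher and 14 lower (5 and 8 without WT-p 1 and 3).

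Of 78 cytosolic ribosomal proteins 6 were higher (7.69%) and 7 lower (8.97%), below the shares over all genes of 19.0% and 15.9%. Of 77 mitochondrial ribosomal proteins 9 were higher and 13 lower (16.9%), and without WT-p 1 and 3 the counts were 7 and 4. Of 71 oxidative phosphorylation genes 5 were higher and 16 lower (22.5%), and 3 and 7 without those samples. Of 20 aminoacyl-tRNA synthetases 4 were higher (20.0%) and 2 lower. For p53 targets and apoptosis 16 of 53 were higher (30.2%) and 13 lower (24.5%), beside 19.0% and 15.9% of all genes. Without WT-p 1 and 3, 5 were higher and 9 lower, beside 10.2% and 8.79% of all genes. The median of this list was -0.016, and -0.051 without those samples. The counts were 6 and 9 of 43 for cholesterol and fatty acid synthesis, and 7 and 11 of 46 for sirtuins and DNA or histone methylation enzymes. They were 6 and 9 of 41 for Wnt genes, 6 and 8 of 37 for Id and BMP genes, 4 and 4 of 28 for immediate early genes, 1 and 3 of 17 for ERK feedback inhibitors, and 4 and 2 of 17 for Txnip and glucose sensors. Actin-binding proteins had 5 and 8 of 32, sympathoadrenal transcription factors 5 and 5 of 28, and pyrimidine genes 8 and 5 of 26. Without WT-p 1 and 3 the counts were 2 and 9 for cholesterol and fatty acid synthesis, 3 and 6 for sirtuins and methylation enzymes, 3 and 6 for Id and BMP genes, 1 and 4 for immediate early genes, 0 and 2 for Txnip and glucose sensors, 5 and 5 for actin-binding proteins, 3 and 4 for sympathoadrenal transcription factors and 8 and 3 for pyrimidine genes. Over all genes 10.2% were higher and 8.79% lower without WT-p 1 and 3. With loess alone the lists named in this paragraph had fewer higher members, except ERK feedback inhibitors, with 1 in both. Loess alone also called fewer of all genes higher, 1329 against 3091.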
